A study of Mus musculus with 6 samples.

Results

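The 9 oocyte transcription factors Nobox, Figla, Sohlh1, Sohlh2, Lhx8, Tbpl2, Taf4b, Pou5f1 and Sall4 were examined in mature oocytes of aged mice. They were taken by gene name among the Ensembl genes of the deposited expression matrix, which gave 9 of 60193 listed genes, and this rule uses names and no measured value. Both groups held metaphase II (MII) oocytes of ICR mice aged 42-45 weeks. All mice had received PMSG, which stimulates follicle growth. The oocytes of the IVM group were taken from the ovary as denuded germinal vesicle oocytes and matured in M16 medium for 12 h. Those of the IVO group matured in the animal after an hCG injection given 46 h after PMSG and were collected from the oviduct 14 h later. Each group had 3 libraries, and each library was made from 20 oocytes pooled from 3 mice, so that a value is a mean over oocytes of several animals. In such pools, fewer oocytes with a transcript and fewer copies per oocyte cannot be told apart.

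These factors are known for separate steps of oocyte life. FIGLA, SOHLH1 and SOHLH2 are basic helix-loop-helix (bHLH) proteins, which bind E-boxes as dimers, and FIGLA is needed for primordial follicles to form and for the zona pellucida genes to be transcribed. NOBOX and LHX8 are homeodomain proteins that drive growth of the early oocyte. TBPL2 is a relative of the TATA-binding protein TBP that takes its place in the initiation complex of growing oocytes, and TAF4B is a gonad-enriched relative of the TFIID subunit TAF4. POU5F1 (OCT4) and SALL4 are best known as pluripotency factors and are made again in the growing oocyte. A mature oocyte hardly transcribes its genome, so the RNA measured in it is largely RNA stored during growth.

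Expression was given as FPKM, the fragments on a gene scaled by transcript length and library size. The depth rebuilt from the steps between low values was 16460000 to 19260000 fragments per library, and the mean fragment length was 196 to 217 bases in IVM libraries and 248 to 264 bases in IVO libraries. The summed FPKM was 1826738 to 2111776 in IVM libraries and 1560813 to 1643682 in IVO libraries. A log2FC is the difference of log2(FPKM + 1), IVO minus IVM, which understates the change of genes near 1 FPKM. A differentially expressed gene (DEG) had an absolute log2FC of at least 1 and an adjusted p under 0.05 in limma, with Benjamini-Hochberg adjustment over the 18818 genes whose FPKM averaged 1 or more. In IVO oocytes 3366 genes were DEGs on the lower and 114 on the higher side, a share of 96.7% lower that was 84.7% after median-ratio scaling of the libraries and 59.0% after quantile normalization. The median log2FC of all tested genes was −0.30 as deposited, −0.04 after median-ratio scaling and 0.17 after quantile normalization. The tested genes include assembled loci, which are not Ensembl genes. All of the factors are Ensembl genes, and the median of the 13154 tested Ensembl genes was −0.18 as deposited. The signs given below are against 0, so each log2FC is to be set beside these medians.

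Of the 9 factors, 8 passed the filter and 1, Sohlh1, did not. Among those 8, Figla was a DEG, lower in IVO oocytes, and none was a DEG in the other direction. The background was 18.5% of all tested genes and 15.3% of tested Ensembl genes, so 1 of 8 is close to it. The same gene was the single factor with an adjusted p under 0.05, against 23.4% of all tested genes. The log2FC was negative for 4 factors and positive for 4, with a median of −0.08. The groups of 3 libraries did not overlap for Figla, which was lower in IVO oocytes, or for Pou5f1 and Sall4, whose values were higher there. Groups did not overlap for 42.2% of all tested genes, with 32.6% lower and 9.62% higher in IVO oocytes. The plot of FPKM by library shows every value.

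**Figure D1:**
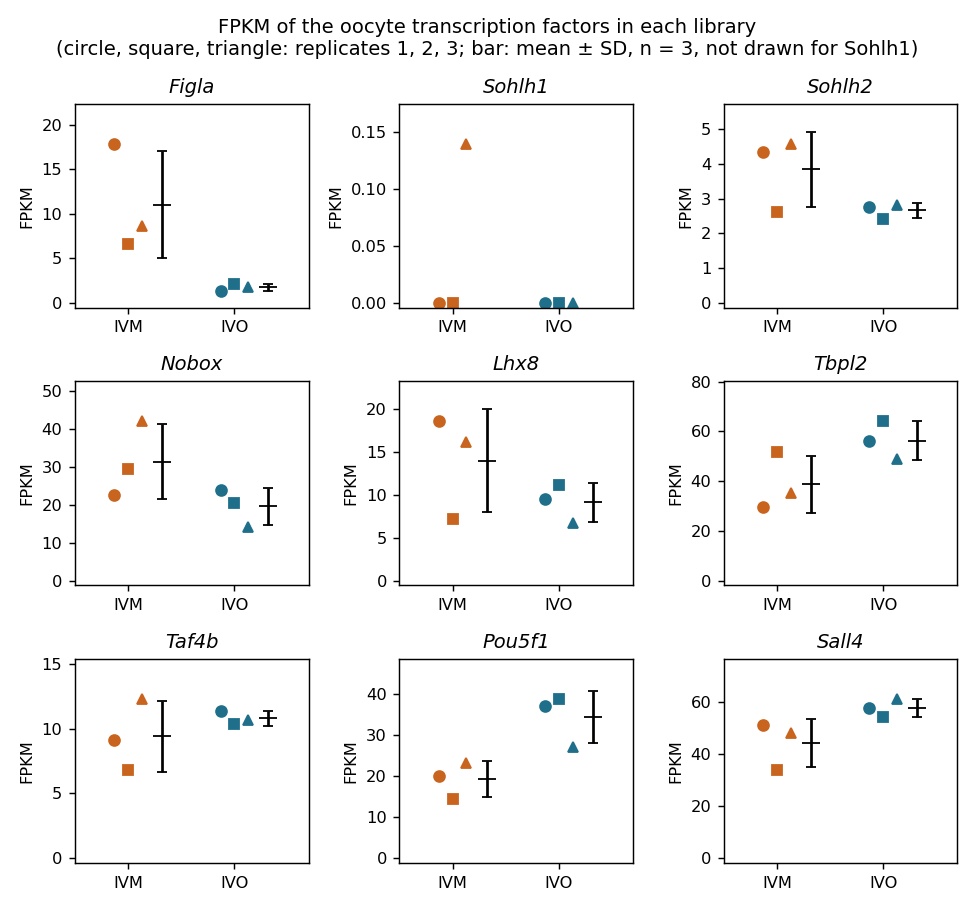
FPKM of the 9 oocyte transcription factors in the 3 IVM libraries (orange) and the 3 IVO libraries (blue), each panel on its own linear axis, with symbols for the replicate number and bars for mean ± SD. Figla lies between 6.61 and 17.9 in IVM and between 1.33 and 2.08 in IVO libraries, Pou5f1 and Sall4 lie higher in all IVO libraries, and Sohlh1 is at or near 0 throughout.

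Figla (ENSMUSG00000030001, GRCm39 chr6:85993153-85997978, plus strand, 3 exons in the canonical transcript) was the single DEG among the factors, lower in IVO than in IVM oocytes. Its FPKM was 17.9, 6.61 and 8.61 in IVM libraries 1, 2 and 3, and 1.33, 2.08 and 1.83 in IVO libraries 1, 2 and 3. The lowest IVM library was thus above the highest IVO library, and IVM library 1 was far above the other IVM libraries. The means were 11.05 ± 6.04 and 1.75 ± 0.382 FPKM (SD, n = 3 each), a 6.32-fold lower mean in IVO oocytes. The log2FC was −2.03 (SE 0.36, 95% interval −2.88 to −1.18, limma adjusted p = 0.00896). These values rest on 160, 71 and 92 fragments in the IVM libraries and on 12, 19 and 17 in the IVO libraries, so counting error is considerable on the IVO side. Under the 19 alternatives the log2FC lay between −2.48 and −1.56 and Figla was a DEG in each, including each fit without 1 library.

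The 250 bases before the start of the canonical Figla transcript are printed because FIGLA and the SOHLH proteins bind E-boxes. The capitals mark matches to CANNTG, which is read alike on both strands, and the window is GRCm39 chr6:85993923-85994172, plus strand. This window lies inside the listed span of the gene, which has 2 annotated transcripts and begins upstream of it at 85993153.
Figla promoter: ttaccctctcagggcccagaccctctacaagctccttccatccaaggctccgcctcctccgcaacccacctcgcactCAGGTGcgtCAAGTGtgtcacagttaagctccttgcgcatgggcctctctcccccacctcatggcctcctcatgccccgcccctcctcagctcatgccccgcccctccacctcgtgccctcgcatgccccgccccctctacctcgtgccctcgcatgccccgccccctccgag
It held 2 E-boxes, which begin 173 and 164 bases before the transcript start. E-boxes of this form are common: 64.8% of the 21626 annotated coding promoters of the same length held at least 1, as did 8 of the 9 factors, all but Lhx8. A match in these letters is a description of the sequence.

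The other bHLH factors stood low or absent. Sohlh1 (ENSMUSG00000059625, chr2:25733007-25737351, minus strand, 8 exons), which acts with SOHLH2 in primordial follicles before growth, was listed at 0 FPKM in 5 libraries and at 0.14 in IVM library 3. That value is worth 3 fragments, and 3 fragments correspond to 0.144 to 0.170 FPKM in the IVM libraries and to 0.160 to 0.162 in the IVO libraries. Sohlh1 RNA was therefore not detectable above that level in either group, and no fold was computed. Sohlh2 (ENSMUSG00000027794, chr3:55089265-55117382, plus strand, 11 exons) had an FPKM of 4.35, 2.61 and 4.59 in IVM libraries and 2.76, 2.42 and 2.81 in IVO libraries. IVM library 2 lay among the IVO values, so the groups overlapped. The log2FC was −0.38 (SE 0.25, 95% interval −0.97 to 0.21, limma adjusted p = 0.322), and it was 0.08 after quantile normalization. Its direction therefore turned with the scaling.

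Nobox (ENSMUSG00000029736, chr6:43280608-43286488, minus strand, 9 exons) had the highest level of the early oocyte regulators. Its FPKM was 22.5, 29.4 and 42.0 in IVM libraries and 23.9, 20.5 and 14.2 in IVO libraries. The groups overlapped, because IVM library 1 lay below IVO library 1. The log2FC was −0.64 (SE 0.30, 95% interval −1.33 to 0.06, limma adjusted p = 0.167), and none of the 19 alternatives brought the adjusted p under 0.05. Lhx8 (ENSMUSG00000096225, chr3:154011931-154036296, minus strand, 9 exons) had an FPKM of 18.6, 7.23 and 16.1 in IVM libraries and 9.52, 11.2 and 6.70 in IVO libraries. IVM libraries 1 and 3 were above all IVO libraries and IVM library 2 was not. The log2FC of Lhx8 was −0.49 (SE 0.37, 95% interval −1.36 to 0.37, limma adjusted p = 0.380), and it was 0.01 after quantile normalization. The interval holds a level more than 2-fold lower in IVO oocytes as well as a slightly higher one. The ratio of Nobox to Figla FPKM was 1.26, 4.45 and 4.88 in IVM libraries and 18.0, 9.88 and 7.78 in IVO libraries. Within each IVO library Nobox thus stood further above Figla than in any IVM library.

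The factors of the initiation complex had positive log2FC values and were not DEGs. Tbpl2 (ENSMUSG00000061809, chr2:23961733-23986607, minus strand, 7 exons) had an FPKM of 29.5, 51.6 and 35.2 in IVM libraries and 55.9, 64.1 and 48.7 in IVO libraries. IVM library 2, the lowest IVM library for 6 other factors, was the highest for Tbpl2 and overlapped the IVO range. The log2FC was 0.56 (SE 0.25, 95% interval −0.03 to 1.14, limma adjusted p = 0.155), and Tbpl2 was a DEG under quantile normalization alone among the alternatives, at 1.06. Taf4b (ENSMUSG00000054321, chr18:14916228-15035158, plus strand, 15 exons) had an FPKM of 9.11, 6.81 and 12.3 in IVM libraries and 11.4, 10.4 and 10.7 in IVO libraries. The IVO values lay inside the IVM range. Its log2FC was 0.21 (SE 0.24, 95% interval −0.36 to 0.79, limma adjusted p = 0.574) and it was −0.02 once each library's trend with gene length was removed.

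Each of these factors has a widely expressed relative, and the FPKM of each pair is set side by side. FPKM is per length, but a level compared between genes also depends on poly(A) tails and on the listed length. Tbp was at 67.0, 55.8 and 60.5 FPKM in IVM libraries and at 109, 98.7 and 102 in IVO libraries, with no overlap. The log2FC of Tbp was 0.75 (SE 0.17, limma adjusted p = 0.0190), past the test threshold but under the fold of a DEG. The ratio of Tbpl2 to Tbp was 0.440, 0.925 and 0.581 in IVM libraries and 0.515, 0.650 and 0.477 in IVO libraries. Tbp thus had the higher FPKM in all 6, and the groups overlapped in this ratio. Tbpl1, the other TBP relative, had 25.1 ± 1.91 and 33.9 ± 5.85 FPKM (SD, n = 3 each), below Tbpl2 in every library by a factor of 1.08 to 2.21. Taf4 had 18.1 ± 3.12 FPKM in IVM and 23.2 ± 0.782 in IVO oocytes (SD, n = 3 each), with a log2FC of 0.35 (limma adjusted p = 0.242). The ratio of Taf4b to Taf4 was 0.412 to 0.568 in IVM libraries and 0.442 to 0.506 in IVO libraries, with the IVO ratios inside the IVM range.

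Pou5f1 (ENSMUSG00000024406, chr17:35816789-35822274, plus strand, 5 exons) had the largest positive log2FC of the 9 factors. Its FPKM was 19.8, 14.5 and 23.2 in IVM libraries and 37.0, 38.7 and 27.0 in IVO libraries. Each IVO library was above each IVM library, and IVO library 3 came closest to the IVM values. The means were 19.2 ± 4.41 and 34.2 ± 6.35 FPKM (SD, n = 3 each), 1.79-fold apart, from 322 to 512 fragments per IVM library and 541 to 769 per IVO library. The log2FC was 0.81 (SE 0.25, 95% interval 0.23 to 1.40, limma adjusted p = 0.0544), so Pou5f1 did not pass the test as deposited. The adjusted p was under 0.05 in 7 of 19 alternatives, and in 4 of them, all with rescaled libraries, Pou5f1 was a DEG at a log2FC of 1.02 to 1.3. The 6 listed genes named as Pou5f1-related sequences were at 0 FPKM in all libraries, as was Gm19553, a long non-coding RNA gene on the opposite strand.

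The Pou5f1 promoter is printed because it holds TAATTG, a form of element that NOBOX is known to bind. Binding at this match was not tested. The capitals mark the element TAATTG, one of the forms TAATTG and TAATTA searched on both strands, and the E-box CAACTG, in the 250 bases before the canonical transcript at GRCm39 chr17:35816539-35816788, plus strand.
Pou5f1 promoter: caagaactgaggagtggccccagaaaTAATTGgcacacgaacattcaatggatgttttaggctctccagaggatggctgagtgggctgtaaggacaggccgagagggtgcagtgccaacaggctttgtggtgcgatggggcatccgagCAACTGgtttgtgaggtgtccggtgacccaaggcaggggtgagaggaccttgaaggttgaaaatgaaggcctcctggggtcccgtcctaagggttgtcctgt
The NOBOX element began 224 bases and the E-box 102 bases before the transcript start. A NOBOX element of either form stood in the windows of 2 of the 9 factors, Pou5f1 and Sall4, and in 11.9% of all 21626 promoters. The octamer ATGCAAAT, which POU5F1 binds, and the TATA box TATAAA stood in none of the 9 windows on either strand, and in 1.5% and 11.9% of all promoters.

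Sall4 (ENSMUSG00000027547, chr2:168590252-168609863, minus strand, 4 exons) was the most abundant of the 9 factors. Its FPKM was 51.2, 33.8 and 48.0 in IVM libraries and 57.7, 54.0 and 61.2 in IVO libraries. All IVO libraries were above all IVM libraries, by a small margin over IVM library 1. The means were 44.3 ± 9.22 and 57.6 ± 3.59 FPKM (SD, n = 3 each). The log2FC was 0.39 (SE 0.21, 95% interval −0.11 to 0.89, limma adjusted p = 0.229), and the adjusted p was under 0.05 after median-ratio scaling (log2FC 0.71) and quantile normalization (0.88). Its relatives Sall1 and Sall3 were at 0.03 FPKM or less in every library and Sall2 at 0.33 to 0.54, so Sall4 had by far the highest level of its family. The non-coding gene Gm14261 overlaps Sall4 on the opposite strand, from which reads without strand cannot be told apart, and was listed at 0 to 0.11 FPKM.

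**Figure D2:**
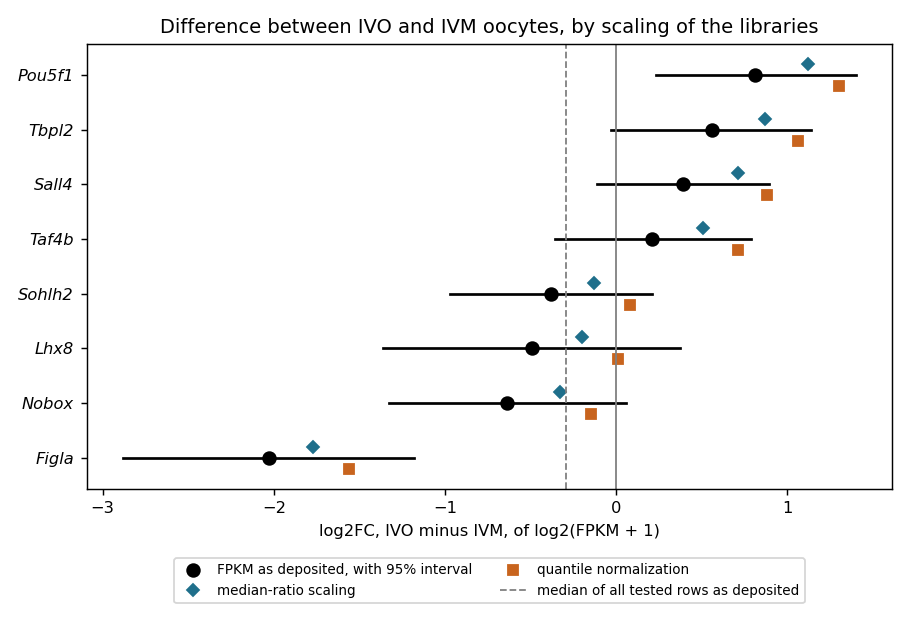
Difference between IVO and IVM oocytes for the 8 tested factors, as log2FC of log2(FPKM + 1), with the 95% interval of the fit to FPKM as deposited (black) and the value after median-ratio scaling (blue) and quantile normalization (orange), against the median of all tested genes (dashed, −0.30). Figla is the lowest at −2.03 and stays below −1 under both scalings, while Pou5f1 moves from 0.81 to 1.12 and 1.3, and Sohlh2 and Lhx8 cross 0 under quantile normalization.

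The order of the levels also differed between the groups. In IVM oocytes the mean FPKM fell in the order Sall4, Tbpl2, Nobox, Pou5f1, Lhx8, Figla, Taf4b, Sohlh2 and Sohlh1, and the neighbours from Sall4 to Taf4b overlapped in their libraries. In IVO oocytes the order was Sall4, Tbpl2, Pou5f1, Nobox, Taf4b, Lhx8, Sohlh2, Figla and Sohlh1, and only Sall4 with Tbpl2 and Taf4b with Lhx8 overlapped. Figla thus stood above Sohlh2 in every IVM library and below it in every IVO library. The ratio of Pou5f1 to Figla was 1.11, 2.19 and 2.70 in IVM libraries and 27.8, 18.6 and 14.7 in IVO libraries. By mean level over the 6 libraries, Sall4 stood at percentile 76.7 of the 13154 tested Ensembl genes and Sohlh2 at percentile 24.5, with Figla at 39.0. The summed FPKM of the 9 factors was 173, 153 and 190 in IVM and 199, 203 and 173 in IVO libraries, with overlap.

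Relative to the mean, the IVM libraries varied more among themselves than the IVO libraries did for each of the 8 tested factors. The SD itself was larger in IVO libraries for Pou5f1 (6.35 against 4.41 FPKM). The coefficient of variation was 20.8% (Sall4) to 54.6% (Figla) in IVM and 5.06% (Taf4b) to 25.1% (Nobox) in IVO libraries. IVM library 2 was the lowest IVM library for Figla, Sohlh2, Lhx8, Taf4b, Pou5f1 and Sall4. For the most abundant factors, Sall4 and Tbpl2, the genes most alike across the 6 libraries were named among 6799 Ensembl genes whose FPKM averaged 10 or more. For Sall4 these were Eif4e3, Gm15507 and Rab14, each with a Pearson r of 0.993, and 218 genes had an r above 0.9. For Tbpl2 they were Pcna-ps2 (r = 0.993), Rps3a1 (0.986) and Sec11a (0.981), and 81 genes had an r above 0.9. With 6 points that also share their group and depth, these values are descriptions.

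Transcript length was set beside the result for Figla, since fragments were shorter in IVM libraries and short transcripts had lower log2FC values. The listed Figla length was 759 bases. Among 1074 tested Ensembl genes of more than 600 and up to 900 bases, the median log2FC was −0.36 (quartiles −1.09 and 0.14), against −0.12 for the 3082 genes over 4000 bases. The share of DEGs lower in IVO oocytes was 23.5% and 11.1% in these length classes. Of the genes in the Figla class, 7.73% had a log2FC at or below that of Figla, and with each library's length trend removed its log2FC was −1.98. Pou5f1 and Tbpl2, of 1362 and 1379 bases, lay above the upper quartile of 0.19 in their class of 900 to 1500 bases.

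**Figure D3:**
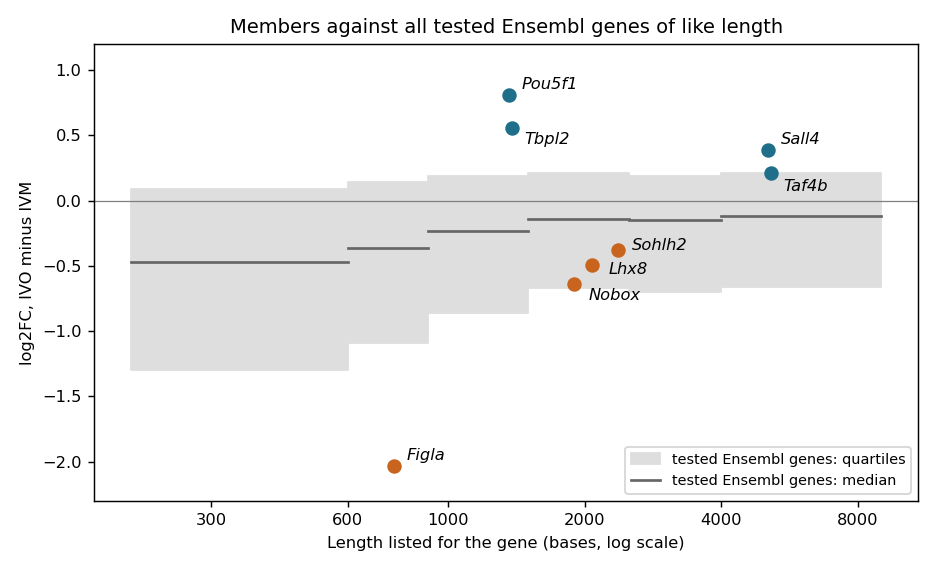
log2FC of the 8 tested factors against the length listed for each gene (bases, log scale), with the median (line) and quartiles (grey band) of tested Ensembl genes in 6 length classes. Figla lies below the lower quartile of its class (−1.09), Pou5f1, Tbpl2 and Sall4 lie above the upper quartile of theirs, Taf4b lies at that edge, and the other factors lie within the band.

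The 3′ ends of the factors are shown because the cDNA was primed on poly(A) tails. In the last 50 bases of the canonical transcript, 5 factors had the polyadenylation signal AATAAA, 3 had ATTAAA and Tbpl2 had neither, while 70.7% of 21619 coding transcripts had 1 of these forms. The signal is in capitals in a window of 30 bases, given for the factors whose groups did not overlap and for Sohlh2.
Figla: atgtaaaatataATTAAAatgagatgatat
Pou5f1: attttgttcttaAATAAAgactgggacaca
Sall4: gtaaggtctgaaAATAAAgtgaatgttttc
Sohlh2: attgttttgtttAATAAAatgttttctctt
A cytoplasmic polyadenylation element, TTTTAT or TTTTAAT on the transcript strand in the last 100 bases, stood in Sohlh2 only among the 9 factors, beginning 76 and 11 bases from its end, and in 15.9% of coding transcripts. The ATTAAA form of Figla was shared by Sohlh1 and Lhx8, and whether the 3′ ends bear on the levels was not tested.

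Of 21 genes known to depend on these factors in growing oocytes, all tested, 7 were DEGs lower in IVO oocytes and none was a DEG on the higher side. The median log2FC of the 21 genes was −0.86, and 16 of the values were negative. The background of DEGs was 17.9% of all tested genes lower and 0.606% higher. The zona pellucida genes, targets of FIGLA, were among the DEGs lower in IVO oocytes. Zp2 was at 874, 398 and 414 FPKM in IVM libraries and 43.6, 42.4 and 33.6 in IVO libraries (log2FC −3.69, SE 0.32, limma adjusted p = 0.00119). Zp3 was at 892, 326 and 588 FPKM against 58.5, 64.4 and 65.1 (log2FC −3.13, SE 0.35, limma adjusted p = 0.00202). Khdc3, a subunit of the subcortical maternal complex, was at 347, 103 and 222 FPKM against 13.9, 11.5 and 20.8 (log2FC −3.65, SE 0.45, limma adjusted p = 0.00261). For all 3 genes every IVM library stood above every IVO library, and IVM library 1 was the highest, as it was for Figla. IVM library 1 was also the highest for listed targets that were not DEGs, such as Gdf9, Bmp15 and Mos, but not for Oosp1 and Oosp3. The remaining DEGs were Zp1, Tle6, Nlrp5 and Padi6, of which all but Nlrp5 were named after their values were seen, with log2FC values of −2.43, −2.55, −1.99 and −1.38. Padi6 was not a DEG after quantile normalization (−0.84). Gdf9, an oocyte growth factor and target of NOBOX, was at 1794, 1028 and 1321 FPKM in IVM and 964, 1089 and 1023 in IVO libraries, with overlap and a log2FC of −0.39 (limma adjusted p = 0.232). The most abundant listed targets, Oosp3 and Oosp1, had log2FC values of 0.26 and 0.18 (limma adjusted p = 0.282 and 0.483).

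**Figure D4:**
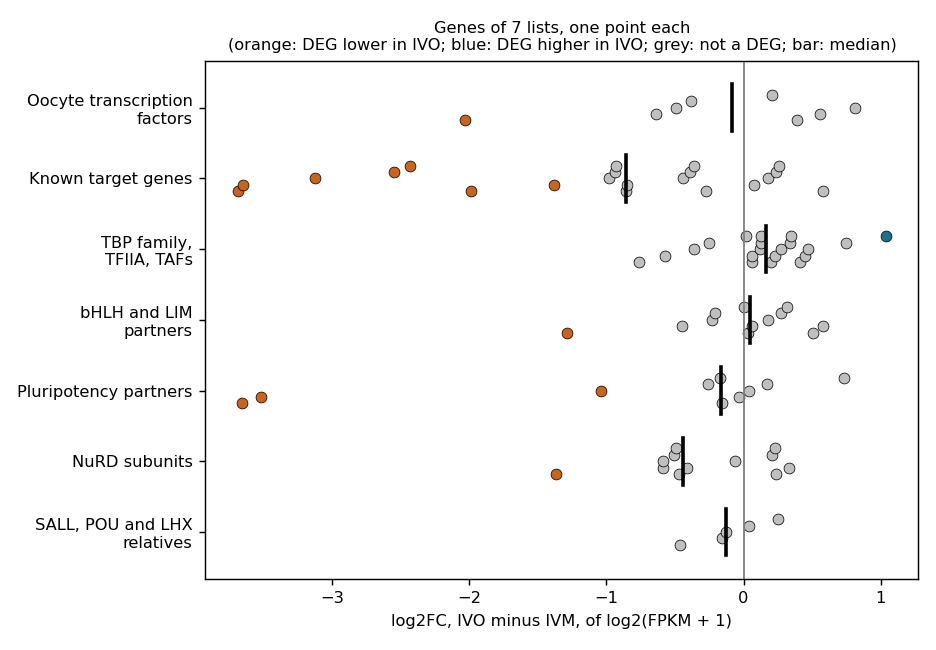
log2FC of every tested gene of 7 lists, 1 point per gene, with the median of each list as a bar and DEGs in colour. The target genes have 7 DEGs lower in IVO oocytes and a median of −0.86, the factors have 1 (Figla), and the single DEG on the higher side is Taf13 in the list of TBP relatives, TFIIA and TAF subunits.

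In the rest of the initiation complex 2 genes, Taf13 and Tbp, had an adjusted p under 0.05, both higher in IVO oocytes. Of 21 genes for TBP relatives, TFIIA, TFIIB and TAF subunits, 20 were tested. There was 1 DEG higher in IVO oocytes and none lower, with 16 positive log2FC values and a median of 0.17. Among all tested genes 23.4% had an adjusted p under 0.05, 17.9% were DEGs lower and 0.606% were DEGs higher. Taf13, a TFIID subunit, was at 241, 330 and 247 FPKM in IVM libraries and 556, 556 and 557 in IVO libraries (log2FC 1.04, SE 0.17, limma adjusted p = 0.00715). It was no longer a DEG without IVM library 1 or without IVM library 3, or with the length trend removed. Gtf2b and Gtf2a2, for TFIIB and the small TFIIA subunit, were among the most abundant of the list and had log2FC values of −0.25 and 0.34 (limma adjusted p = 0.313 and 0.198). Groups did not overlap on the higher side for 8 of the 20 genes, Tbp and Taf4 among them, against 9.62% of all tested genes. On the lower side they did not overlap for 2, against 32.6% of all tested genes. These were Gtf2a1l and Taf9, with log2FC values of −0.57 and −0.76 (limma adjusted p = 0.0731 and 0.0710).

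Among 15 partners of the bHLH and LIM factors, 3 had a mean FPKM well above that of any of the 9 factors. Tcf12, a bHLH dimer partner, was at 399, 511 and 364 FPKM in IVM libraries and 176, 172 and 164 in IVO libraries, and it was the single DEG among 12 tested partners (log2FC −1.29, SE 0.18, limma adjusted p = 0.00393). It was not a DEG after median-ratio scaling, quantile normalization or scaling to the same FPKM sum (log2FC −0.97, −0.80 and −0.96). The share of DEGs was 18.5% over all tested genes. Lmo1, a LIM-only protein, had 632 ± 90.9 FPKM in IVM and 712 ± 71.3 in IVO oocytes (SD, n = 3 each), with a log2FC of 0.18. Ssbp2, which binds LDB cofactors of LIM proteins, had 128 ± 13.7 FPKM in IVM and 131 ± 15.7 in IVO oocytes (SD, n = 3 each), with a log2FC of 0.03.

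Among 20 genes that act with POU5F1 in pluripotent cells, 10 were tested. Of these, 3 were DEGs lower in IVO oocytes and none was a DEG on the higher side. The background was 17.9% of all tested genes lower and 0.606% higher. Esrrb, a nuclear receptor, was at 73.2, 47.5 and 49.98 FPKM in IVM libraries and 3.67, 4.39 and 2.63 in IVO libraries (log2FC −3.66, SE 0.26, limma adjusted p = 6.53e-04). Dppa5a and Nr5a2 had log2FC values of −3.52 and −1.04. Nr5a2 was not a DEG after median-ratio scaling (−0.73), also with Ensembl genes only (−0.83), quantile normalization (−0.56) or the same FPKM sum (−0.72), nor without IVM library 1 (−0.94) or IVO library 1 (−0.93). The groups did not overlap for these 3 genes, and their direction was opposite to that of the Pou5f1 values. Non-overlap on the lower side held for 4 of the 10 tested genes, against 32.6% of all tested genes. Tcl1, which was at 3229 ± 940 FPKM in IVM and 5228 ± 328 in IVO oocytes (SD, n = 3 each), had a log2FC of 0.73 (limma adjusted p = 0.0442). Of the SALL4 partners in the NuRD complex, 12 of 13 were tested and Rbbp4, a histone-binding subunit, was the single DEG, at 150 ± 4.06 FPKM in IVM and 57.8 ± 5.58 in IVO oocytes (SD, n = 3 each; log2FC −1.37, limma adjusted p = 0.00249). Rbbp4 was not a DEG after quantile normalization. DEGs made up 18.5% of all tested genes. Of 17 SALL, POU and LIM-homeobox relatives, 5 were tested and none was a DEG, with Lhx2 the most abundant at 2237 ± 148 and 2043 ± 162 FPKM (SD, n = 3 each).

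The oocyte label was checked with 10 marker genes, all of them tested, whose FPKM summed to 10690 to 13639 in IVM and 8160 to 10293 in IVO libraries. Of the 10 log2FC values, 9 were negative, and the median was −0.64. Zp3 and Nlrp5 were DEGs lower in IVO oocytes, against a background of 17.9% of all tested genes. This list shares Zp3, Gdf9, Bmp15, Ooep, Zar1, Mos and Nlrp5 with the targets above. Of 18 granulosa and cumulus cell genes, 3 passed the filter (Cyp19a1, Fshr and Amhr2) and none of these was a DEG. The other 15 were below the filter and were not tested. The summed FPKM, carried mostly by the 3 tested genes, was 31.0 to 61.8 in IVM and 34.8 to 58.5 in IVO libraries. Of the defining granulosa genes, Amh was listed at 0 in all libraries and Foxl2 at 0.02 or less, but Fshr was not absent. Its FPKM was 6.14 to 16.3 in IVM and 10.5 to 13.8 in IVO libraries. Cyp19a1 was at 16.25 to 18.8 FPKM in IVM and 17.7 to 23.1 in IVO libraries. Has2, a cumulus expansion gene, was at 0.04 to 0.14 FPKM in IVM and 0.17 to 0.37 in IVO libraries. Gja1 (0.02 to 0.05 against 0.24 to 0.86), Tnfaip6 (0 to 0.14 against 0.34 to 0.49) and Ptx3 (0 to 0.03 against 0.07 to 0.17) were likewise higher in each IVO library. These genes had few fragments and were chosen after their values were seen. No gene of the list was lower in each IVO library than in each IVM library. Of 12 blood and stromal genes 2 passed, with sums of 6.33 to 9.08 and 6.65 to 12.8 FPKM, and Ptprc was at 0.16 or less. The part of these cells in the differences of the factors was not tested. The housekeeping gene Gapdh had 101 ± 23.8 and 90.5 ± 10.01 FPKM (SD, n = 3 each), with a log2FC of −0.13 (limma adjusted p = 0.727).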

How the data were processed

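RNA-seq was measured in 6 pools of MII oocytes, 3 IVM and 3 IVO, grouped by the sample titles. cDNA was amplified with SMART-Seq v4, which primes on poly(A) tails, so tail length and RNA amount cannot be told apart, and the libraries do not keep strand. Per the labels and Methods, the authors used SeqPrep and Sickle to trim paired reads of 150 bases and HISAT2 2.1.0 to place them on GRCm39, and deposited FPKM per gene and sample from RSEM 1.3.3. The deposited group means and KEGG columns were not used. The authors' test, DESeq2 1.24.0, needs counts and was not run here.

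Differential expression was tested on log2(FPKM + 1) with limma 3.58.1 in R 4.3.3 (lmFit, eBayes with trend), with the group as the single term, for genes whose FPKM averaged 1 or more. P-values are two-sided, adjusted by the Benjamini-Hochberg method, and measure the spread between pools. An exact permutation test of 3 against 3 libraries cannot go below 0.1, so none was used. Depth and fragment length were rebuilt from values of at most 5.5 fragments in 13829 genes with 1 transcript of 500 to 4000 bases, of which 71.3% to 75.4% per library came out whole within 0.15 fragments. Numbers of fragments are therefore estimates, and floors cover counting error only. Tables were made with pandas 2.3.3 and numpy 2.4.6 under Python 3.11.15, and figures with matplotlib 3.10.9.

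The members, gene lists, tests and alternatives were chosen with earlier results of these data known. Named were the 9 factors, from each list up to 3 DEGs per direction by size and the 3 most abundant genes where they bear on the text, the paralogs, 5 defining markers of other cells, Gapdh, and the 3 genes most like each of the 2 most abundant factors. Promoters, transcript ends and motif shares were read from the GRCm39 genome with its GENCODE annotation, and no promoter or 3′ end of Taf4b is printed. Alternatives changed the pseudocount (to 0.1), the filter (none, or an average FPKM of 5) and the scaling of the libraries (median-ratio, quantile, same FPKM sum). They also changed the eBayes trend, the block (the replicate number) and the length trend of each library (removed by lowess, span 0.3, with and without the block). Others changed the genes (Ensembl only, also with median-ratio scaling), the unit (FPKM times listed length) and the libraries (each left out in turn). The change of unit multiplies a gene by the same factor in all libraries. It thus alters a log2FC only through the weight of the pseudocount, and it does not restore numbers of fragments.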

Additional observations from a re-analysis of the deposited data

How the results depend on the processing

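Figla was a DEG lower in IVO oocytes under each of the 19 alternatives, with an adjusted p of 0.00677 to 0.0366. The 3480 DEGs became 2056 with Ensembl genes only and 1610 with median-ratio scaling added, and 2363 to 3304 when 1 library was left out. The DEGs among the 9 factors, 1 as deposited, were 2 after median-ratio scaling, with or without the assembled loci, 2 with the same FPKM sum (Pou5f1 added in each) and 3 after quantile normalization (Tbpl2 added too), and 1 without any single library. The factors with an adjusted p under 0.05 were 3 after median-ratio scaling and 4 after quantile normalization. They were 2 with a mean FPKM of at least 5, the same sum, Ensembl genes with or without median-ratio scaling, or FPKM times listed length. Sohlh2 and Lhx8 turned to 0.08 and 0.01 after quantile normalization, and Taf4b to −0.02 with the length trend removed, with or without the block. The DEGs among bHLH and LIM partners were 0 after median-ratio scaling or the same sum. Those among TBP relatives and TAF subunits were 2 after median-ratio scaling, quantile normalization or the same sum, 0 with the length trend removed, with or without the block, and 0 to 1 without 1 library. Removing the length trend gave 11 DEGs among the targets and 4 among the oocyte markers, against 7 and 2, and leaving out 1 library gave 7 to 10 and 2 to 4, the latter without IVM library 2. NuRD subunits had 0 after quantile normalization. The cause was not tested in any of these cases.

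IVM and IVO libraries share only a replicate number: the correlations of same-numbered deviations from the group means were −0.062, −0.018 and −0.107. With the replicate number as a block there were 2991 DEGs, and Figla was the single DEG among the factors. Of the calls given for listed genes, that fit ended the one of Nr5a2 (adjusted p = 0.0502) and no other. Depth limits Sohlh1, and the few fragments of Figla in IVO libraries limit the precision of its fold.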

Other observations

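Dazl, an RNA-binding protein of germ cells, was at 742 FPKM in IVM and 1230 FPKM in IVO oocytes (means, n = 3 each), with a log2FC of 0.74 (limma adjusted p = 0.0220). H1f8, the oocyte linker histone, had a log2FC of −0.30 (limma adjusted p = 0.336). Amhr2, the receptor of anti-Müllerian hormone, was at 6.86, 7.89 and 27.9 FPKM in IVM libraries and 3.98, 3.14 and 21.9 in IVO libraries, so library 3 stood apart in both groups. Hbb-bs, a beta-globin gene, was listed at 0 in all IVM libraries and IVO library 1, and at 2.33 and 2.04 FPKM in IVO libraries 2 and 3. Dazl was chosen after its values were seen.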
